A study of Mus musculus with 6 samples.

Results

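The simple-epithelial keratins are the intermediate filament proteins of single-layered epithelia such as the secretory luminal layer of the prostate. The 6 genes Krt7, Krt8, Krt18, Krt19, Krt20 and Krt23 were taken by name from the 54532 named gene rows of the series, in which 48 other keratin rows were also listed. Total RNA was extracted from entire anterior prostates (AP) of male mice aged 20 weeks, and 1 library was sequenced for each of 3 OEx and 3 Ctrl samples. The samples are called mice here, although the labels do not say whether they came from separate animals. OEx mice carried Pbsn-Cre and the Cre-inducible Rosa26 N1ICD allele (Pbsn-Cre Rosa26 N1ICD/+), so that the Notch1 intracellular domain was expressed where the probasin promoter drives Cre, in the prostatic epithelium. Ctrl mice carried the Rosa26 N1ICD/+ allele without Cre according to the paper, while their label gives the genotype as wild type. The comparison addresses how the luminal keratin make-up of the AP differed once N1ICD was over-expressed in the epithelium. In whole tissue, fewer cells of a type and less RNA per cell cannot be told apart.

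Keratin filaments are built from heterodimers of 1 type I (acidic) and 1 type II (basic to neutral) chain, and a chain without a partner is usually degraded. Krt8 (type II) and Krt18 (type I) form the founding pair of luminal prostate cells. Krt7 (type II) and Krt19 (type I) accompany it in ducts and glands, Krt19 being unusual in almost lacking a tail domain. Krt20 (type I) is known from the gut lining and the umbrella cells of the urothelium, and Krt23 is a less studied type I keratin. Luminal prostate cells are classically marked by Krt8 and Krt18 and basal cells by Krt5 and Krt14.

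The libraries held between 14772003 and 18655456 reads recovered on annotated genes. FPKM (fragments per kilobase of exon, scaled to a library size chosen by the authors) is per length, so levels can be set side by side between genes. Notch1 was listed at 41.9, 47.6 and 78.9 FPKM in OEx mice and 5.18, 5.55 and 3.34 FPKM in Ctrl mice, in the direction of the genotype labels. The prostate gene Pbsn was at 1795 FPKM or more in every mouse. Ctrl mouse 3 stood apart from the other Ctrl mice: 8 seminal vesicle genes took 1.31% of its reads and at most 3.25e-04% in any other mouse, and the FPKM of 6 smooth muscle genes summed to 2671 against 1252 and 1277. OEx mouse 3 stood apart in 6 fibroblast genes, which summed to 25.1 FPKM against 249.8 and 252.0 in the other OEx mice. Mice 1 and 2 of each group were close: the spread of their read counts was 3.67 times (OEx) and 2.93 times (Ctrl) that of counting noise, against 50.4 to 86.7 times for every pair with mouse 3. The labels list each as its own sample and do not say whether they came from separate animals, so p-values measure the spread between these samples.

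The 6 genes lie in both keratin clusters of the mouse genome. Coordinates are those of the GENCODE annotation of GRCm38, whose exon lengths turned the deposited values into whole reads. The type II genes Krt7 (chr15:101411043-101430313, plus strand) and Krt8 (chr15:101996698-102004482, minus strand) lie on chromosome 15, and so does the type I gene Krt18 (chr15:102028180-102032027, plus strand). Krt8 and Krt18 are neighbours that point away from each other, with 23.698 kb between their starts. The other type I genes lie on the minus strand of chromosome 11: Krt20 (chr11:99428403-99438150), Krt23 (chr11:99477974-99493137) and Krt19 (chr11:100140810-100148665).

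RefSeq promoter sequences (GRCm38.p6, 250 bases before to 50 bases after the start) matched 5 of the 6 members, all but Krt19. Their RefSeq starts differ from the GENCODE starts above: those of Krt7, Krt8 and Krt18 lie inside the GENCODE genes, farthest in for Krt7. Positions below are relative to the RefSeq starts. Those of Krt7, Krt8 and Krt18 are shown because Krt7 and Krt18 were the members called lower and Krt8 is the neighbour and partner of Krt18. The windows are chr15:101412153-101412452 on the plus strand for Krt7, chr15:102004293-102004592 on the minus strand for Krt8 and chr15:102027966-102028265 on the plus strand for Krt18. Capitals mark matches on either strand to TGGGAA (the core of the site of RBPJ, the DNA-binding partner of the Notch intracellular domain), TATAAA, the letters of the core promoter box bound by TBP, GGGCGG, the GC box of Sp1-type factors, TGANTCA, the site of AP-1, or AGAACA, the half-site of the androgen receptor.
Krt7: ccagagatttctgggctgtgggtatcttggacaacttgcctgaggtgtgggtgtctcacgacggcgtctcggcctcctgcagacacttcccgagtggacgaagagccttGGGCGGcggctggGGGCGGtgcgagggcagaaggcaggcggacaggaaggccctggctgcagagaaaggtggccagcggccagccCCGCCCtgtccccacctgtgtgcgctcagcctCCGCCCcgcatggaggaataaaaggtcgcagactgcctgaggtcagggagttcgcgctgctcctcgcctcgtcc
Krt8: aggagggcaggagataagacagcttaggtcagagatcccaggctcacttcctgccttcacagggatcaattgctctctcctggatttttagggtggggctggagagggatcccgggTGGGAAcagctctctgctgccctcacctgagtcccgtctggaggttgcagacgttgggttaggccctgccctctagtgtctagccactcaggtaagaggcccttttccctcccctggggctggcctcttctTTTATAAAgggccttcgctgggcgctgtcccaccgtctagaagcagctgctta
Krt18: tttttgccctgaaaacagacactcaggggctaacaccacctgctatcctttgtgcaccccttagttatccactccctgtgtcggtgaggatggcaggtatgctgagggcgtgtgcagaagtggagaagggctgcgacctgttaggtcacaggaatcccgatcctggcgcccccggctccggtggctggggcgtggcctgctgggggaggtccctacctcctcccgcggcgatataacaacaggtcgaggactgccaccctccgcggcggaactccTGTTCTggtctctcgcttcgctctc
The RBPJ letters were found once among the 5 promoters, in Krt8, at 134 bases before the RefSeq start. They are common, since 25.6% of the 32851 promoters of this length held them on either strand. Krt8 also held overlapping matches on both strands to TATAAA at its RefSeq start (13.6% of all promoters), and Krt20 held 1 match to these letters. Krt7 held 4 GC box matches (35.7% of all promoters held at least 1) and had the highest GC content of the 5 promoters, at 66.3% against a median of 52.7% over all promoters. Krt18 held 1 androgen half-site match, on the antisense strand (19.0% of all promoters), and no AP-1 match occurred in the 5 promoters (7.81% of all). Krt23 held no match to any of the 5 motifs. These matches describe letters in a window and do not show binding.

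In the AP of Ctrl mice Krt18 was the most abundant simple-epithelial keratin, and in OEx mice it was Krt19. Krt18 and Krt7 fell in OEx mice, while Krt8, Krt23 and Krt19 differed by less than the 2-fold criterion. Genes were compared with limma on log2(FPKM + 1) and called where the FDR (Benjamini-Hochberg) was under 0.05 and the change was more than 2-fold. Of the 5 members with a mean of at least 1 FPKM, 2 were called lower, and 15.5% of the 12553 genes tested were called lower. None was called higher (limma), where 12.8% of all tested genes were, so that 2 of 5 were called in either direction against 28.2% of all tested genes. Krt19 was the 1 member with a positive difference and an unadjusted p under 0.05, and limma-voom on recovered reads also called 0 members higher. The median log2 fold change of the 5 tested members was -0.65, against -0.07 over all tested genes. The OEx and Ctrl values did not overlap in any of the 5, a property shared by 72.5% of all tested genes.

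Krt18, the type I chain that pairs with Krt8 in luminal cells, was measured at 921, 880 and 808 FPKM in Ctrl mice and at 292, 277 and 364 FPKM in OEx mice. Every OEx mouse was below every Ctrl mouse, with OEx mouse 3 the highest of its group and Ctrl mouse 3 the lowest of its own. Krt18 fell by 1.49 on the log2 scale (SE 0.131, adjusted p = 1.29e-04 in limma), from a mean of 869 ± 57.2 to 311 ± 46.7 FPKM (SD, n = 3), a 2.79-fold lower mean. Between 8385 and 17636 reads lay behind each value. Without Ctrl mouse 3, the difference was -1.54 and remained called, while 3 of 4 other scalings between mice brought it to between -0.97 and -0.59, short of the 2-fold criterion.

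Krt7, a type II chain of ducts and glands, was a minor keratin of this tissue, at 5.17, 5.33 and 6.38 FPKM in Ctrl mice and 1.32, 1.15 and 1.52 FPKM in OEx mice. The groups were far apart compared with their spread, and mouse 3 was the highest in both. Krt7 fell by 1.51 on the log2(FPKM + 1) scale (SE 0.117, adjusted p = 8.63e-05 in limma), and its mean FPKM was 4.23-fold lower. The added 1 FPKM understates a change at this level, and the difference was -2.00 with a pseudocount of 0.1 and -2.10 with limma-voom on the recovered reads. Reads numbered 185, 185 and 194 in OEx mice and 456, 486 and 683 in Ctrl mice. Its level per length is uncertain: all annotated exons of Krt7 together span 7049 bases and its longest coding transcript spans 4094 bases. The antisense gene Gm671 overlaps the GENCODE start of Krt7 and ends before its RefSeq start. The library kit is not stated to keep strand, so that reads of both cannot be told apart in the overlap. Gm671 was listed at 1.35, 0.450 and 1.28 FPKM in OEx mice, in mice 1 and 3 near the level of Krt7 itself, and at 0.823, 0.298 and 0.169 FPKM in Ctrl mice. The part of Gm671 in the Krt7 values was not tested. Without Ctrl mouse 3, the Krt7 difference was -1.43 and remained called.

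Krt8, the type II partner of Krt18, was at 430, 405 and 413 FPKM in Ctrl mice and 300, 291 and 336 FPKM in OEx mice. Its groups did not overlap, yet the lowest Ctrl and the highest OEx values were close. The log2 fold change of -0.43 (SE 0.0939, adjusted p = 0.00618 in limma) was short of the 2-fold criterion, and the adjusted p was 0.105 with mice 1 and 2 of each group averaged into 1 sample. The processed copy Krt8-ps, whose reads may be shared with Krt8, had at most 33 recovered reads in a mouse against at least 10261 for Krt8. The lincRNA Gm36026, on the opposite strand across the start of Krt8, was at 0.456 FPKM or less in every mouse.

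Krt19, the near tail-less type I chain, was at 539, 540 and 472 FPKM in Ctrl mice and 598, 622 and 741 FPKM in OEx mice. It was the 1 member with higher values in OEx mice, and the extremes were again mouse 3 of each group. The log2 fold change was 0.33 (SE 0.121, adjusted p = 0.0454 in limma), short of the 2-fold criterion. The limma adjusted p was 0.0910 without Ctrl mouse 3, 0.117 with the replicate number as a block and 0.140 with mice 1 and 2 of each group averaged.

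Krt23 was at 48.1, 41.9 and 39.8 FPKM in Ctrl mice and 27.0, 28.2 and 26.3 FPKM in OEx mice. The highest OEx value was below the lowest Ctrl value, and the coefficient of variation of the OEx values was 3.70%. The log2 fold change was -0.65 (SE 0.0952, adjusted p = 0.00106 in limma), short of the 2-fold criterion. Krt20, the keratin of umbrella cells, had 2 recovered reads in OEx mouse 2, 2 in Ctrl mouse 3 and none in the other mice, which is under the floor of 3 reads, and it was not tested. Such counts do not allow a statement on its presence or on a difference.

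**Figure D1:**
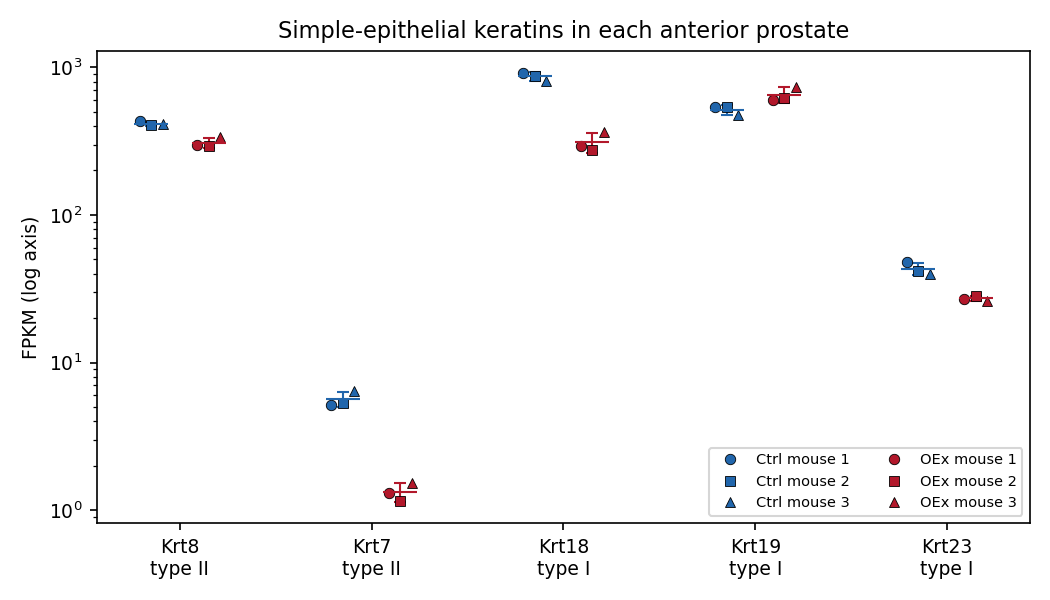
FPKM (log axis) of the 5 measurable simple-epithelial keratins in each mouse, with Ctrl mice in blue, OEx mice in red, symbols for mice 1 to 3, and bars for the mean ± SD of 3 mice. Krt18 went from 808 FPKM or more in Ctrl mice to 364 FPKM or less in OEx mice, and Krt19 was the 1 gene with OEx values above the Ctrl values.

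The order of levels therefore differed between the groups. In each Ctrl mouse it was Krt18, Krt19, Krt8, Krt23, Krt7 and Krt20 from high to low, and no neighbours in that order overlapped, the closest being Krt19 at 472 FPKM or more and Krt8 at 430 FPKM or less. In OEx mice Krt19 led, at 598 FPKM or more, and Krt18 and Krt8 overlapped, with Krt18 above Krt8 in 1 of 3 mice. Below them Krt23, Krt7 and Krt20 kept the Ctrl order. Among all 12553 tested genes ranked by mean FPKM, Krt19 was in place 123 in Ctrl mice and place 41 in OEx mice, and Krt18 in places 67 and 100. Krt7 was in place 6369 in Ctrl mice and place 11603 in OEx mice.

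Ratios between genes within a mouse do not depend on how the libraries were scaled. The Krt8 to Krt18 ratio was 0.467, 0.460 and 0.511 in Ctrl mice and 1.02, 1.05 and 0.922 in OEx mice, a 2.08-fold higher mean. Krt18 transcripts were thus more abundant than those of Krt8 in all Ctrl mice, and the pair was near parity in OEx mice. The Krt19 to Krt18 ratio was 0.585, 0.614 and 0.585 in Ctrl mice and 2.05, 2.24 and 2.03 in OEx mice. The Krt19 to Krt8 ratio was 1.25, 1.34 and 1.14 in Ctrl mice and 2.00, 2.14 and 2.21 in OEx mice. The Krt7 to Krt8 ratio was 3.16-fold lower in OEx mice, without overlap. In contrast, the Krt23 to Krt8 ratio overlapped, at 0.0964 to 0.112 in Ctrl and 0.0782 to 0.0971 in OEx mice. No test was set for these ratios, and with 3 mice a group an exact two-sided permutation test could not give a p below 0.1.

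As a share of the summed FPKM of the 6 keratins, Krt18 made up 46.9% ± 0.474 (SD, n = 3) in Ctrl mice and 23.8% ± 1.05 in OEx mice. Krt19 made up 27.9% ± 0.868 in Ctrl mice and 50.2% ± 0.980 in OEx mice. The share of Krt8 overlapped between groups, at 22.5% ± 1.10 and 23.8% ± 0.866. Krt7 made up 0.306% in Ctrl mice and 0.102% in OEx mice, and Krt23 2.33% and 2.11%.

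Summed by type, the balance of the 6 keratins overlapped between the groups. Type II chains (Krt7 and Krt8) over type I chains (Krt18, Krt19, Krt20 and Krt23) gave 0.288, 0.280 and 0.318 in Ctrl mice and 0.328, 0.315 and 0.298 in OEx mice. Type I chains were thus in excess in every mouse, by a similar ratio, with Krt18 the larger part in Ctrl mice and Krt19 in OEx mice. Over all 54 keratin rows the same ratio did not overlap, at 0.305 to 0.329 in Ctrl and 0.365 to 0.383 in OEx mice.

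**Figure D2:**
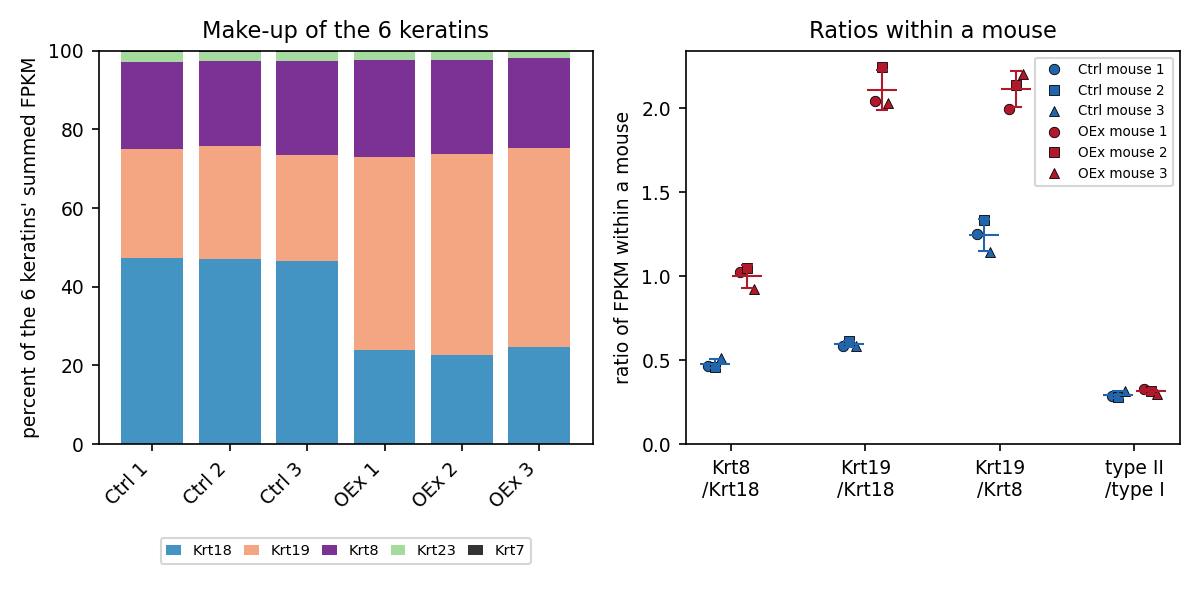
Left, share (percent) of each keratin in the summed FPKM of the 6 keratins in each mouse, where Krt7 is too small to see and Krt20 is not drawn; right, ratios of FPKM within each mouse with bars for mean ± SD of 3 mice. Krt18 took 46.4% to 47.4% in Ctrl and 22.7% to 24.8% in OEx mice, and the type II to type I ratio was the 1 ratio drawn that overlapped.

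The levels themselves depend on the scaling between mice. In Ctrl mice 1 gene took 14.2% to 22.0% of all recovered reads, and in OEx mice no gene took more than 1.12%. The library sizes behind the deposited FPKM differed by at most 0.347% from size factors computed as medians of ratios, which set the median gene equal. On that scale the 6 keratins summed to 1851 ± 104 FPKM in Ctrl mice and 1302 ± 144 FPKM in OEx mice (SD, n = 3), whereas they took 0.236% of recovered reads in Ctrl mice and 0.300% in OEx mice. Krt7 and Krt18 had negative differences and Krt19 a positive one under the deposited scale and 4 others. Krt8 changed sign in 3 of these 4 (log2 fold change 0.23 with equal totals without the 20 most abundant genes, 0.09 with equal pan-epithelial medians, 0.47 with equal totals) and Krt23 in 1 (0.23 with equal totals). With equal pan-epithelial medians, the median log2 fold change of the pan-epithelial genes was itself 0.48. The 4 other scalings moved the median of all tested genes to between 0.17 and 0.66. Krt18 was called lower under 1 of them, upper quartile scaling (-1.20). Krt7 missed it with equal totals alone (-0.86), where Krt19 was called higher (1.23).

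**Figure D3:**
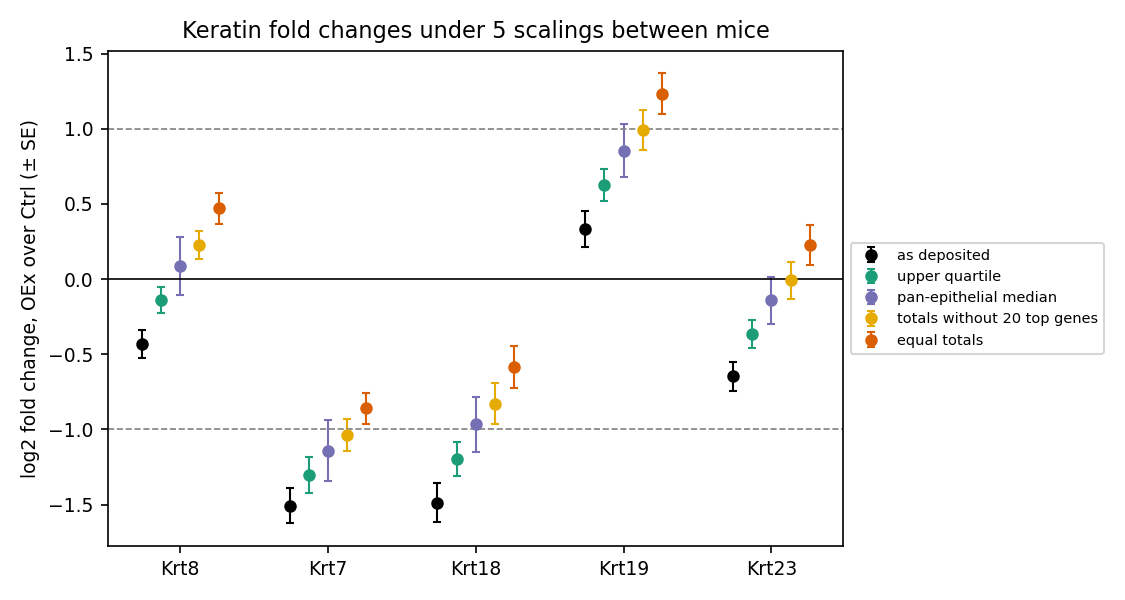
Log2 fold change of FPKM + 1 (OEx over Ctrl, bars ± SE from limma, 3 mice a group) for 5 keratins under the deposited scale and 4 other scalings between mice, with dashed lines at the 2-fold criterion. The 5 genes moved up together with each scaling, so that Krt8 ranged from -0.43 to 0.47 while the order of Krt7 and Krt18 below Krt8 and of Krt19 above it was the same under each.

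Relative to the median of 15 pan-epithelial genes (such as Epcam and Cdh1, of adhesion and junctions) in the same mouse, Krt18 was 0.97 lower on the log2 scale in OEx than in Ctrl mice, Krt7 0.99 lower and Krt19 0.85 higher. These 3 differences showed no overlap between groups. The exact two-sided permutation p was 0.1 for each, the smallest that 3 against 3 mice allow. Benjamini-Hochberg adjustment over 5 members gave 0.167. On the deposited scale 72.5% of all tested genes did not overlap, and the share on this relative scale was not computed. Krt8 (0.09 higher, exact permutation p = 0.6) and Krt23 (0.13 lower, exact permutation p = 0.5) overlapped. Without Ctrl mouse 3, the Krt7 difference was -0.74 and that of Krt18 -0.85. The reference was itself lower in OEx mice. The within-mouse median of log2(FPKM + 1) averaged 6.37 ± 0.294 in Ctrl and 5.84 ± 0.160 in OEx mice (SD, n = 3). The median of the 15 log2 fold changes was -0.04. Each member's difference thus lay above that on the deposited scale by the shift of the within-mouse median. The 15 genes themselves were not a fixed reference: 1 (Tjp3, a tight junction scaffold, log2 fold change 1.06) was called higher and 2 lower (Rab25, a small GTPase of apical recycling, -1.44, and Prss8, a membrane serine protease, -1.10), with a median of -0.04 and summed levels of 1576 to 1876 FPKM in Ctrl and 1584 to 1962 FPKM in OEx mice. Prss8 missed the 2-fold criterion under all 4 other scalings, Rab25 under 3 (down to -0.55) and Tjp3 without Ctrl mouse 3 (0.98). With equal totals, 7 of the 15 were called higher and 0 lower, where 4367 and 446 of the 12553 tested genes were. As deposited, 12.8% of all tested genes were called higher and 15.5% lower.

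Among the other keratins, 8 of 48 rows had a mean of at least 1 FPKM. Krt5, Krt15 and Krt14, chains of basal cells, had the largest negative differences of the 13 keratins tested. Krt5, the type II chain of basal cells, was at 58.2, 58.3 and 55.2 FPKM in Ctrl mice and 1.32, 1.45 and 2.60 FPKM in OEx mice, a log2 fold change of -4.41. Its type I partner Krt14 (-3.85) and the basal type I chain Krt15 (-4.37) were also called lower, under the deposited scale and the 4 others, and Krt17, a type I chain of basal and stressed cells (-1.16), under the deposited scale alone and not without OEx mouse 3 (-0.87). Krt4, a type II chain of internal stratified epithelia and of proximal luminal cells, was called higher, with 22.0 to 22.7 FPKM in the Ctrl group and 47.3 to 70.2 FPKM in the OEx group (log2 fold change 1.24). The epidermal chains Krt1 (0.86) and Krt10 (0.11) and Krt78 (-0.50) were not called under the deposited scale. Krt1 was called higher under the 4 others (1.001 to 1.29), and Krt10 and Krt78 under none. With these chains included, the 6 simple-epithelial keratins made up 87.8% ± 1.44 of all keratin FPKM in Ctrl mice and 94.7% ± 0.704 in OEx mice (SD, n = 3), without overlap.

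**Figure D4:**
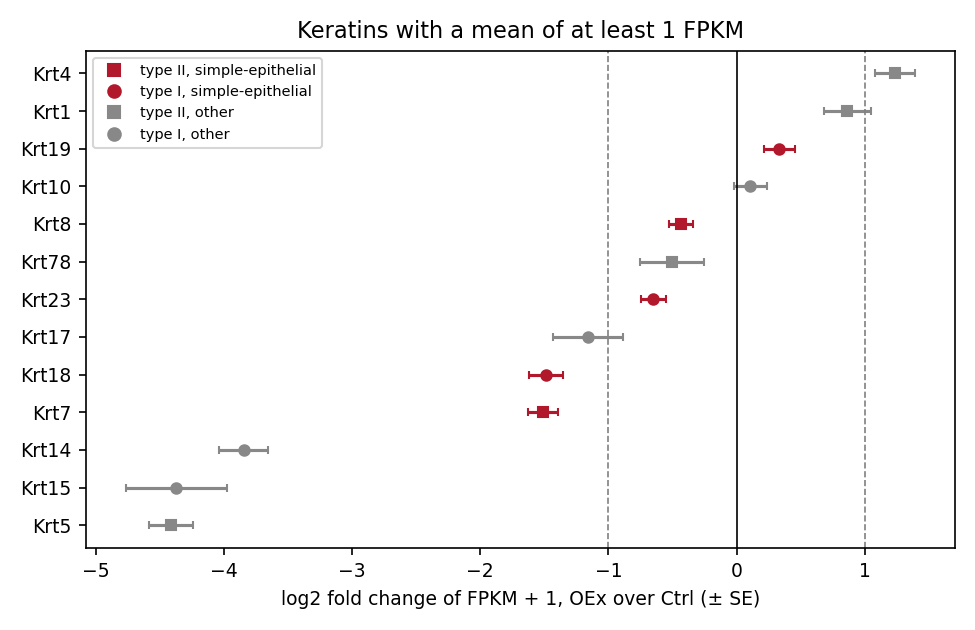
Log2 fold change of FPKM + 1 (OEx over Ctrl, bars ± SE from limma, 3 mice a group) of the 13 keratins with a mean of at least 1 FPKM, with red for the simple-epithelial keratins, squares for type II chains and dashed lines at the 2-fold criterion. Krt5, Krt15 and Krt14 lie between -4.41 and -3.85, and Krt7 and Krt18 between -1.51 and -1.49.

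Summed marker levels of basal, distal luminal and urothelial cells did not overlap between the groups, and those of proximal luminal cells did. For the counts below, 12.8% of all tested genes were called higher and 15.5% lower. The 5 basal genes, of which 4 are the keratins above and the fifth is Trp63, were all called lower and summed to 216 to 256 FPKM in Ctrl and 9.11 to 16.7 FPKM in OEx mice. Of the 5 distal luminal genes, 3 were called lower and 1 higher, and they summed to 23430 to 23806 FPKM in Ctrl and 2707 to 5925 FPKM in OEx mice. The secretory genes Tgm4 (-5.44) and Pbsn (-2.60) were lower and Msmb (4.60) higher in log2 fold change. Of 7 proximal luminal genes, 3 were called higher, among them Ppp1r1b (1.37), and 2 lower, Psca (-3.36) and Wfdc2 (-1.78), and the summed levels overlapped at 208 to 277 FPKM and 241 to 336 FPKM.

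Of 4 tested urothelial genes, the uroplakins Upk3a (4.37) and Upk1a (3.59) were called higher, where 12.8% of all tested genes were. Their list summed to 150 to 201 FPKM in Ctrl and 326 to 552 FPKM in OEx mice. Upk1b of the same list had a log2 fold change of -0.90 and was not called, and Krt20 was at 2 reads or fewer in each mouse. All 6 smooth muscle genes were called lower, led by Cnn1 (-2.41) and Acta2 (-1.84), where 15.5% of all tested genes were. Under 3 of the other scalings 4 were called, and with equal totals 1, where 446 of the 12553 tested genes were called lower. The 4 neuroendocrine genes summed to at most 0.821 FPKM and the 4 mesothelial genes to at most 1.66 FPKM in any mouse. The part of any of these cell types in the keratin values was not tested.

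Of the genes that hold or organise keratin filaments, the desmosome and plakin list had 3 called higher and 1 lower among 11 tested, with a median log2 fold change of 0.24. Over all tested genes, 12.8% were called higher, 15.5% lower and 28.2% in either direction, with a median of -0.07. The cornified envelope plakins Evpl (1.85) and Ppl (1.39), which link keratins to the cell periphery, were the largest increases, and Pkp1, a plakophilin of stratified epithelia (-2.15), was the 1 lower. Of 7 keratin-organising or keratin-binding genes, 2 were called lower: Stub1, a ubiquitin ligase (-1.52), and Sqstm1, an autophagy receptor found in keratin aggregates (-1.39). Stub1 was called under 2 and Sqstm1 under 1 of the 4 other scalings. With equal totals, and with totals without the 20 most abundant genes, 3 genes of this list were called higher and 0 lower. Of the 12553 tested genes, 4367 and 3400 were called higher there and 446 and 656 lower. The direction of the calls in this list thus rests on the scale, as it does over all tested genes. Of 13 epithelial transcription factors tested, Klf5 (1.30) was called higher and Spdef, a factor of secretory luminal cells (-2.47), lower, with a median of 0.26. Both were called under the 4 other scalings too. There, 4 to 7 factors were called higher and 1 lower, with a median of 0.55 to 1.15. Over all 12553 tested genes these counts were 2311 to 4367 and 446 to 1233, with a median of 0.17 to 0.66. Of 6 other intermediate filament genes tested, the smooth muscle filament gene Des (-1.18) and the nuclear lamina gene Lmna (-1.01) were called lower under the deposited scale and under none of the 4 others. Des remained called in 1 of the 6 fits that left out a mouse, without Ctrl mouse 2, and Lmna in all but the fit without Ctrl mouse 1 (-0.98).

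Genes most like each keratin were sought among the 4515 tested genes averaging 10 FPKM or more, by Pearson r of log2(FPKM + 1) over the 6 mice, which share library and group. For Krt18 these were Pde9a, Cbr2 and Vdac1 (r from 0.9993 to 0.9995), and 427 genes had an r above 0.99. For Krt7 they were Tes, Rpp21 and Sod1, with 339 genes above 0.99, and for Krt8 Aplp2, Pebp1 and Glmp, with 45. Krt23 was most like Mvp, H2afx and Cnot8, with 26 genes above 0.99. Krt19 had the fewest, 13, led by Nek9, Lima1 and Sort1. Among the members, Krt8 and Krt18 had an r of 0.99 and Krt18 and Krt19 one of -0.72, although within each group mouse 3 was at the same end for Krt18 and Krt19.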

How the data were processed

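Total RNA of the whole AP of 3 OEx and 3 Ctrl mice was sequenced by the authors with a TruSeq kit, and 1 table of FPKM per gene symbol and mouse was deposited. The submitters' processing notes name CASAVA, HISAT2 2.0.5, featureCounts 1.5.0-p3 and StringTie 1.3.3b. The genome build and the library size behind the deposited FPKM are not given in the sources used here. Of 55076 rows, 544 without a gene name (0.632% to 1.21% of FPKM) were left out. With GENCODE exon lengths of GRCm38, 96.9% to 97.5% of values gave whole reads (tolerance 0.05 reads) at 14772003 to 18655456 reads per mouse. The floor of 3 reads covers counting error only.

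A linear model with the group as its term was fitted to log2(FPKM + 1) by limma 3.58.1 (R 4.3.3), with an intensity trend, over the 12553 rows averaging 1 FPKM or more. Calls needed an FDR under 0.05 and a log2 fold change beyond 1 in either direction, after the criteria of the paper. A change of low genes is understated on this scale. Summaries were made in Python 3.11.15 with pandas 2.3.3, numpy 2.4.6 and scipy 1.17.1, and plots with matplotlib 3.10.9. Counts for 3 against 3 mice were simulated over 12467 genes. Of the changed genes, 81% of those changed by 1.5 on the log2 scale and 98% of those changed by 2.5 were called. Every gene had the same low spread, changes were placed in well-covered genes only, and mouse 3 did not stand apart. These shares therefore do not give the power for the mice of this series. The same replicate numbers occur in both groups, but the labels do not tie them to a litter or batch, so the replicate block was an alternative only. Other scalings, pseudocounts, filters, limma-voom on recovered reads and leaving out each mouse were tried. Averaging mice 1 and 2 of a group into 1 sample, and leaving out mice in the comparison with pan-epithelial genes, were chosen after seeing the data.

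The members and gene lists were chosen with earlier results of these data known. Named were the 6 members, Notch1, up to 2 higher and 2 lower called genes of largest change per list, the other keratins averaging 1 FPKM or more, and the 3 genes most like each member. Any other gene was named after its values were seen. Some genes that this rule picks are not reported here.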

Additional observations from a re-analysis of the deposited data

How the results depend on the processing

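The limma calls of 2 members lower and 0 higher were the same with each mouse left out, with the replicate block, with mice 1 and 2 of each group averaged into 1 sample (Krt7 adjusted p = 0.00473, Krt18 0.00687), with pseudocounts of 0.1 and 0.5, without the filter, without the trend and with limma-voom. The scaling between mice changed them. With equal FPKM totals, Krt7 (-0.86) and Krt18 (-0.59) missed the 2-fold criterion, Krt8 (0.47) and Krt23 (0.23) reversed and Krt19 (1.23) was called, giving 1 member higher and 0 lower, and 4367 genes higher and 446 lower against 1604 and 1941 as deposited. With totals without the 20 most abundant genes, Krt8 reversed (0.23) and Krt18 missed the criterion (-0.83), leaving 1 member lower, with 3400 genes higher and 656 lower. With equal pan-epithelial medians, Krt8 reversed (0.0896) and Krt18 missed the criterion (-0.97), leaving 1 member lower, with 2894 genes higher and 800 lower. This scaling did not centre the changes of the pan-epithelial genes themselves. The median of their log2 fold changes was 0.48 under it, against -0.04 as deposited, with 3 called higher and 0 lower. The Krt8 value was smaller than that median, so its reversal depends on how the reference is summarised. Upper quartile scaling gave 2311 higher and 1233 lower. Krt7 was not tested with a mean of at least 5 FPKM, which left 1 member lower and 670 genes higher. By FDR alone, 1 member was higher (Krt19, 0.33) and 4 lower, with Krt8 at -0.43 and Krt23 at -0.65, and 3875 genes higher and 4584 lower. Which members were called thus depended on the scale, the filter and the criterion, and which scale is right was not tested.

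Correlations of the deviations of same-numbered mice were -0.201, -0.192 and -0.314. The mouse that stood apart carried the same number in both groups, and so can dominate these values. They therefore cannot decide whether the numbers pair the mice. With the replicate block, 1565 genes were higher and 1906 lower, and Krt7 (adjusted p = 0.00203 in limma) and Krt18 (0.00322) remained called at -1.51 and -1.49.

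With each mouse left out, calls ranged from 1569 to 1671 genes higher and from 1910 to 1963 lower, with 0 members higher and 2 lower throughout. Fold changes ranged from -1.57 to -1.43 for Krt7, -0.49 to -0.39 for Krt8, -1.61 to -1.41 for Krt18, 0.24 to 0.39 for Krt19 and -0.70 to -0.57 for Krt23. The Krt8 to Krt18 ratio averaged 0.973 to 1.04 in OEx and 0.463 to 0.489 in Ctrl mice, and the type II to type I ratio 0.307 to 0.322 and 0.284 to 0.303. Relative to pan-epithelial genes, differences ranged from -1.13 to -0.74 for Krt7, -0.01 to 0.26 for Krt8 (reversed at -0.0064 without Ctrl mouse 2), -1.03 to -0.85 for Krt18, 0.79 to 0.96 for Krt19 and -0.23 to -0.01 for Krt23.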

Other observations

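Some keratins of stratified epithelia were below the level tested and were looked at after their values were seen. Krt6a, a type II chain induced in activated epidermis, was at 1.08, 0.868 and 1.40 FPKM in OEx mice, and at 0.0331, 0 and 0.0816 FPKM in Ctrl mice with at most 3 recovered reads. Krt2, an epidermal type II chain, was at 0.230, 0.268 and 0.848 FPKM in OEx mice and listed at 0 in each Ctrl mouse. Neither was tested. Both were far below Krt8, Krt18, Krt19 and Krt23, while Krt6a was near Krt7 in OEx mice (1.15 to 1.52 FPKM). Other keratins below the level tested did not all go this way. Krt76 was at 0.0217 FPKM or less in OEx mice and 0.0668 to 0.207 FPKM in Ctrl mice, with at most 6 recovered reads. Krt16 and Krt13 overlapped between the groups. Of the 54 keratin rows, 20 were at 0 in all 6 mice.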
